A study of Mus musculus with 9 samples.

Results

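AP-1 is a family of transcription factors built from pairs of Fos and Jun proteins. In the mouse 7 genes encode them: Fos, Fosb, Fosl1 (Fra-1) and Fosl2 (Fra-2) on the Fos side, and Jun, Junb and Jund on the Jun side. A probe set, the group of oligonucleotides read as 1 transcript, was taken where its only gene symbol in the platform annotation was 1 of these 7. This gave 1 probe set for each gene, 7 among 21780 probe sets with a single symbol, and all 7 passed the filter on low signal.

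Total RNA of mouse striatum was measured on 9 single-colour Affymetrix arrays, 3 for each of 3 groups. The control mice had saline in 4 injections at 2 h intervals and were sampled after 1 week. The acute MPTP mice had 4 injections of MPTP at 20 mg/kg, also at 2 h intervals (80 mg/kg in all), and were sampled after 1 week. The chronic MPTP mice had MPTP at 4 mg/kg once a day on 20 consecutive days, the same 80 mg/kg in all, and were sampled after 8 weeks. MPTP is a toxin that is turned into MPP+ in the brain, and MPP+ enters dopamine neurons through the dopamine transporter. The axons of these neurons end in the striatum. Strain, sex and age of the mice are not given in the sources used here. The saline group stands at 1 week, so in every comparison with the chronic group the dosing scheme and the time after it cannot be told apart. Nothing in the labels says that the arrays of a group came from separate mice, so p-values measure the spread between arrays, which may be technical.

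A Fos protein binds DNA with a Jun partner, whereas Jun proteins can also pair with each other. Fos, Fosb and Junb are classic immediate early genes: their transcription starts within minutes of synaptic input through factors already in the cell, such as CREB and SRF, and their messages are short-lived. In the striatum Fosb is best known for DeltaFosB, a truncated and long-lived product of alternative splicing that builds up with repeated stimulation of projection neurons. A gene-level probe set does not separate DeltaFosB from the full-length message.

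The start regions of 6 of the 7 genes were in the RefSeq promoter table (build GRCm38.p6). Fosl1 had no entry. Shown are the 250 bases before the start of the 4 genes on which the comparisons below turn, 5′ to 3′ on the strand of the gene. Capitals mark TGACG, the core of the cAMP response element bound by CREB and ATF factors, searched on both strands. The windows lie at chr12:85473640-85473889 (plus strand, Fos), chr7:19310046-19310295 (minus strand, Fosb), chr8:84978749-84978998 (minus strand, Junb) and chr5:32136222-32136471 (plus strand, Fosl2).

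Fos: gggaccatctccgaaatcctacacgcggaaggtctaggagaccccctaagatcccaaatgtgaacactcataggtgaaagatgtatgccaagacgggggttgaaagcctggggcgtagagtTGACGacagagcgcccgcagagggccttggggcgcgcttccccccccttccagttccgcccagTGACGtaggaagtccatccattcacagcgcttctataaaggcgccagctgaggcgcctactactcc
Fosb: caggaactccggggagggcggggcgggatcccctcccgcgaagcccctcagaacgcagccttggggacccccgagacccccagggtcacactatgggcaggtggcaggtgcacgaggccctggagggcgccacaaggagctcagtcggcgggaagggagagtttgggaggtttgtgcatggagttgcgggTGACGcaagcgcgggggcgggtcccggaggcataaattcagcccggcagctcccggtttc
Junb: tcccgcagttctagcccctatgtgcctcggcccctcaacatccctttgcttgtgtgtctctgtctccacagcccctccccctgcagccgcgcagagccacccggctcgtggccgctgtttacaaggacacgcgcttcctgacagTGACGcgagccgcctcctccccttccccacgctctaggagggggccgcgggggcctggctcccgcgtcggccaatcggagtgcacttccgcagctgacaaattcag
Fosl2: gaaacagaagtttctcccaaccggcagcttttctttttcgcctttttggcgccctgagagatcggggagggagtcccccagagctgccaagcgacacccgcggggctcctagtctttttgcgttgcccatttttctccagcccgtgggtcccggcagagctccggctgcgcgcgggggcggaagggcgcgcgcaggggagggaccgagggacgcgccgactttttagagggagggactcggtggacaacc

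The Fos window held TGACG at 129 to 125 and again at 66 to 62 bases before the start, and TATAAA at 33 to 28 bases. Fosb held TGACG once, at 60 to 56 bases, and Junb once, at 106 to 102 bases. The Fosl2 and Jund windows held none. The Jun window held no TGACG but TGACATCA, a match to TGACNTCA, at 45 to 38 bases before the start. No window of the 6 held the whole palindrome TGACGTCA or the AP-1 site TGANTCA. Of 32851 windows of the same length, 17.8% held TGACG, 1.55% TGACGTCA, 6.75% TGANTCA, 7.49% TGACNTCA and 12.4% TATAAA on either strand. TGACG is part of TGACGTCA, and TGACNTCA includes TGACGTCA. A match is a run of letters, not a site shown to be bound.

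The tissue label was checked first. The striatal projection neuron genes Ppp1r1b (DARPP-32), Drd1 and Drd2 (dopamine receptors) were far above the filter of log2 5.89 on each array, with Ppp1r1b between 11.4 and 12.3. The arrays also differed in neighbouring tissue. The cortical marker Tbr1 ran from 5.69 to 7.27 on 6 arrays but was 9.89 in control 1, 9.12 in acute 1 and 9.65 in acute 2. Ttr, made by the choroid plexus, was highest in control 3 (12.6) and acute 3 (13.4), followed by chronic 3 (10.9). Values without these arrays, or with 2 covariates (the mean of the cortex markers and the mean of the markers of thalamus, septum and hypothalamus), are given beside the results they move most.

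**Figure D1:**
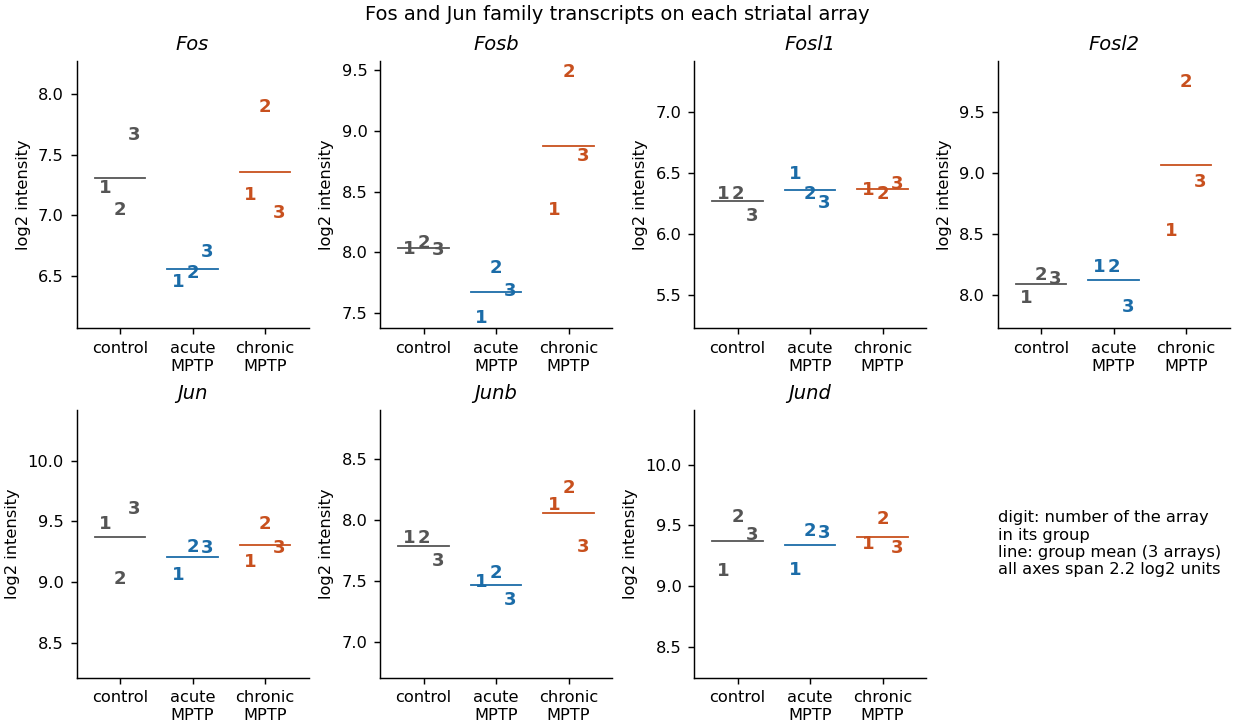
Log2 intensity of each of the 7 genes on each of the 9 arrays; each digit is an array by its number in its group, and each line is the mean of the 3 arrays of a group. All axes span the same number of log2 units. Fos, Fosb and Junb are lowest in the acute group, Fosb and Fosl2 are highest in the chronic group, and Fosl1, Jun and Jund overlap between all groups.

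The first comparison asked what differed 1 week after acute MPTP. Fos, Fosb and Junb were lower on all 3 acute arrays than on any control array, while Fosl1, Fosl2, Jun and Jund overlapped. None of the 7 passed an adjusted p of 0.05 (limma, Benjamini-Hochberg over 16335 probe sets), nor did any other probe set: 0% were called, and 139 had an unadjusted p under 0.05. That count was 398, 405 and 57 without control 1, 2 or 3, and 86, 72 and 346 without acute 1, 2 or 3. With no difference anywhere, a fraction of 0.05 of the 16335 probe sets would be counted on average, here and in the comparisons below. The 3 members without overlap compare with 1.49% of all probe sets that were lower without overlap, and the 2 members lower at an unadjusted p under 0.05 (Fos and Junb) with 0.435%. Over the 7 members 5 were lower and 2 higher, with a median difference of -0.16 against 0.004 over all probe sets. The median was -0.29 without control 2, -0.04 without control 3 and -0.08 without acute 1. With 3 arrays against 3, the exact permutation test of a single gene cannot go below 0.1. Tissue markers differed too: all 14 measured striatal projection neuron markers were higher in the acute group (median 0.31, 1 at an unadjusted p under 0.05). Of 12 markers of thalamus, septum and hypothalamus 11 were lower (median -0.41). As a mean deviation from the average of the 9 arrays, the striatal markers were at -0.42, 0.12 and -0.60 on the control arrays. On the acute arrays they were at 0.11, 0.02 and -0.02, all below control 2. The thalamus, septum and hypothalamus markers were at -0.53, 0.01 and 1.56 in controls and at -0.73, -0.45 and 0.79 in the acute group, with overlap. Of 11 cortex markers 9 were higher (median 0.29), and of 8 choroid plexus markers 7 were higher (median 0.22). The means of both lists overlapped between the acute and control arrays. The part of the tissue markers in these results was not tested. In whole striatum, fewer cells that make a message and less message per cell cannot be told apart.

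Fos, the founding member and the usual marker of recently active neurons, was at log2 7.23, 7.04 and 7.66 on the control arrays and at 6.45, 6.52 and 6.70 on the acute arrays. The highest acute array was below the lowest control array. The difference was -0.75 ± 0.23 (SE; 1.69-fold lower, 95% interval -1.27 to -0.23), with unadjusted p = 0.00945, adjusted p = 1 and an exact permutation p = 0.1. It ranked 8th of the 16335 probe sets by p. With the tissue covariates and the replicate number as a block together, the difference was -0.42.

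Junb, a Jun protein that is induced together with Fos and is a weaker activator than Jun on many promoters, was at 7.85, 7.85 and 7.67 on the control arrays. On the acute arrays it was at 7.49, 7.57 and 7.34, again without overlap. The difference was -0.32 ± 0.13 (SE; 1.25-fold lower), with unadjusted p = 0.0357 and adjusted p = 1. Fosb was at 8.03, 8.07 and 8.02 in controls, the tightest group of any member, and at 7.46, 7.87 and 7.68 in the acute group. Its difference of -0.37 ± 0.24 (SE) left the groups apart, but its unadjusted p was 0.164 because the fit takes its spread from all 3 groups.

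The other 4 members showed smaller differences. Jun, the main activating partner of Fos, was at 9.47, 9.03 and 9.60 on the control arrays and at 9.06, 9.29 and 9.28 on the acute arrays. The control arrays enclosed all 3 acute arrays, and the difference was -0.16 ± 0.16 (SE; 95% interval -0.51 to 0.19), or -0.04 without control 3. Jund, the Jun protein that most cells make without a stimulus, was at 9.13, 9.57 and 9.42 in controls and at 9.13, 9.45 and 9.43 in the acute group. The arrays numbered 1 were the low ones in both groups, and the difference was -0.03 ± 0.14 (SE; 95% interval -0.35 to 0.28). Fosl2, at 8.23, 8.23 and 7.89 on the acute arrays, lay on both sides of its controls and differed by 0.03 ± 0.26 (SE). Without the 3 arrays high in cortex genes its difference was -0.25, but the acute group is then acute 3 alone. Fosl1 differed by 0.09 ± 0.09 (SE). These intervals leave room for a change of about the size seen for Junb in Jun, Jund and Fosl2.

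Genes outside the family that share its immediate early response were described from lists written with earlier results of these data known. Of 15 tested immediate early transcription factors, 10 were lower and 5 higher in the acute group (median -0.18), and none passed the adjusted threshold. Those with the smallest p were Nr4a1 (Nur77, an orphan nuclear receptor), at -1.31 ± 0.16 (SE; adjusted p = 0.23), and the antiproliferative cofactor Btg2, at -0.79 ± 0.27 (SE). Nr4a1 was between 8.57 and 8.71 on the acute arrays and between 9.94 and 9.99 on the control arrays, a gap far wider than the spread within either group. Of 18 immediate early effectors, 11 were lower and 7 higher (median -0.16). Arc, which works at synapses, differed by -0.69 ± 0.12 (SE), and Dusp1, a phosphatase that switches off MAP kinases, by -0.84 ± 0.33 (SE). Without acute 1 both medians were -0.07, without acute 3 that of the factors was -0.10 and without control 2 that of the effectors was -0.10. In these lists 3 factors and 3 effectors were lower at an unadjusted p under 0.05, and none was higher. Upstream of AP-1 the differences were smaller: the 14 regulators of Fos and Jun transcription had a median of 0.02 and the 11 kinases one of 0.05, with no gene at an unadjusted p under 0.05. Those with the smallest p were the coactivator Crebbp at -0.12 ± 0.10 (SE), the Srf partner Elk1 at 0.20 ± 0.17 (SE), the JNK activator Map2k4 at -0.20 ± 0.11 (SE) and the CREB kinase Rps6ka5 (MSK1) at 0.36 ± 0.21 (SE).

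**Figure D2:**
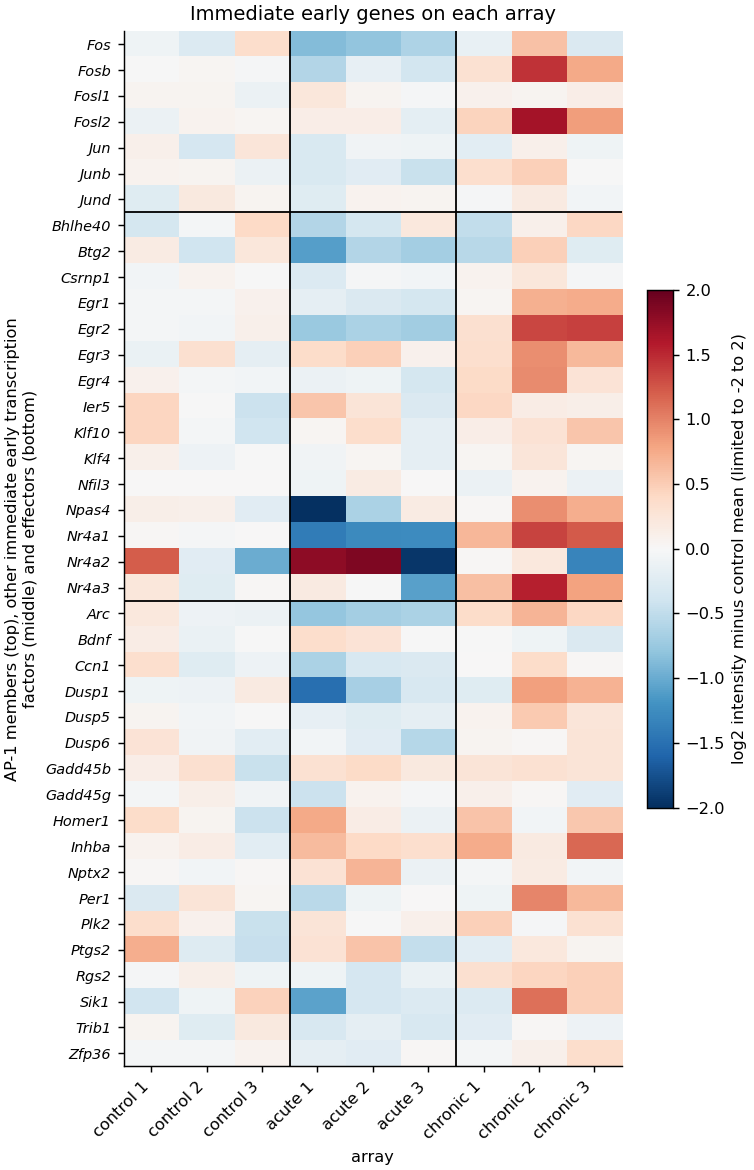
Log2 intensity minus the control mean for the 7 members (top), other immediate early transcription factors (middle) and effectors (bottom) on the 9 arrays; the colour scale is limited to -2 to 2. Fos, Fosb, Junb, Nr4a1, Egr2 and Arc are below the control mean on all 3 acute arrays, and Fosb, Fosl2, Nr4a1 and Egr2 are above it on all 3 chronic arrays.

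The second comparison set the chronic group at 8 weeks against the saline controls. Fosb and Fosl2 were higher on all 3 chronic arrays than on any control array. Fos, lower in the acute group, was near its control level. None of the 7 members passed the adjusted threshold, and 0% of all probe sets did, while 900 had an unadjusted p under 0.05 (465 without control 3 and 584 without chronic 3). The 2 members higher without overlap compare with 2.88% of all probe sets, and the 2 higher at an unadjusted p under 0.05 (the same Fosb and Fosl2) with 2.85%. Of the 7, 6 were higher and 1 lower, with a median of 0.10 against -0.01 over all probe sets. The median was 0.20 without control 3, 0.15 without chronic 1 and 0.22 without chronic 3.

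Fosl2, a Fos protein without the strong activation domain of Fos, was at 7.97, 8.16 and 8.13 on the control arrays and at 8.53, 9.75 and 8.92 on the chronic arrays. Each chronic array was above each control array, and chronic 2 was well above the other two. The difference was 0.98 ± 0.26 (SE; 1.97-fold higher, 95% interval 0.39 to 1.57), with unadjusted p = 0.00442 and adjusted p = 0.876. Fosb was at 8.35, 9.49 and 8.79 on the chronic arrays against 8.02 to 8.07 in controls. Its difference was 0.84 ± 0.24 (SE; 1.79-fold higher, 95% interval 0.29 to 1.39), with unadjusted p = 0.00724 and adjusted p = 0.876. Without chronic 2 the differences were 0.64 for Fosl2 and 0.53 for Fosb.

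Junb was at 8.12, 8.26 and 7.78 on the chronic arrays. Chronic 1 and chronic 2 lay above all controls and chronic 3 inside their range, a difference of 0.27 ± 0.13 (SE; unadjusted p = 0.0728, adjusted p = 0.926). Without chronic 2 it was 0.16. Fos was at 7.17, 7.89 and 7.02 on the chronic arrays, which enclosed the control values. Its difference was 0.05 ± 0.23 (SE; 95% interval -0.47 to 0.57) and turned to -0.21 without chronic 2. Jun, at 9.16, 9.48 and 9.28, differed by -0.06 ± 0.16 (SE). Jund, at 9.35, 9.55 and 9.31, differed by 0.03 ± 0.14 (SE) and Fosl1 by 0.10 ± 0.09 (SE).

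Tissue markers moved with this comparison. All 14 measured striatal projection neuron markers were higher in the chronic group (median 0.52; 13 of 14 at an unadjusted p under 0.05). Their mean, as a deviation from the average of the 9 arrays, ran from 0.21 to 0.35 on the chronic arrays, from -0.60 to 0.12 on the control arrays and from -0.02 to 0.11 on the acute arrays. Of 11 cortex markers, 9 were lower in the chronic group (median -0.54), and of 12 markers of thalamus, septum and hypothalamus, 11 were lower (median -0.56). The mean of the cortex markers was highest on control 1 (1.08) and that of the thalamus, septum and hypothalamus markers on control 3 (1.56). Both means overlapped between the chronic and control groups. The medians of astrocyte, oligodendrocyte, microglia and endothelium markers lay between -0.07 and 0.14. With the mean of the cortex markers and that of the thalamus, septum and hypothalamus markers as covariates, Fosb differed by 1.03 ± 0.41 (SE) and Fosl2 by 1.12 ± 0.45 (SE). In that fit Fos differed by 0.48 ± 0.31 (SE) and Jun by 0.41 ± 0.15 (SE), where the fit without covariates gave 0.05 and -0.06; with the block as well these were 0.75 and 0.42. The part of the striatal markers in these differences was not tested.

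Among the other immediate early transcription factors, 12 of 15 were higher in the chronic group and 3 lower (median 0.32), 6 of them at an unadjusted p under 0.05 and none past the adjusted threshold. Nr4a1 differed by 1.08 ± 0.16 (SE) and the zinc finger factor Egr2 by 1.01 ± 0.24 (SE). Of 18 effectors, 15 were higher (median 0.27), led by Rgs2, a brake on G protein signalling, at 0.41 ± 0.10 (SE), and Arc at 0.49 ± 0.12 (SE). Without control 3 the medians were 0.20 for the factors and 0.11 for the effectors, and without chronic 2 that of the effectors was 0.16. Of 14 regulators of Fos and Jun transcription, 11 were higher (median 0.19), with a median of 0.07 without chronic 2 and 0.10 without chronic 3. Atf1, a CREB relative, differed by 0.45 ± 0.12 (SE) without overlap, and Srf by 0.37 ± 0.15 (SE). The 11 kinases upstream of AP-1 split into 3 higher and 8 lower (median -0.06), and Map2k4 differed by -0.29 ± 0.11 (SE) and Rps6ka5 by 0.42 ± 0.21 (SE).

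The third comparison set the chronic against the acute group. All 7 members were higher in the chronic group, and for Fos, Fosb, Fosl2 and Junb every chronic array was above every acute array. None of the 7 passed the adjusted threshold. Of all probe sets 0.0122% did, namely Nr4a1 and Arc. The 4 members higher without overlap compare with 3.61% of all probe sets, and the same 4 at an unadjusted p under 0.05 with 2.36%. The median of the members was 0.59 against -0.01 over all probe sets. At an unadjusted p under 0.05 there were 837 probe sets in either direction (389 without acute 2, 1381 without chronic 1 and 502 without chronic 3). Beside this, 14 of 14 striatal projection neuron markers were higher (median 0.22). Of cortex markers 11 of 11 were lower (median -0.76), and of choroid plexus markers 8 of 8 (median -0.37). As mean deviations from the average of all arrays, the choroid plexus markers were at -0.68, -0.59 and 1.92 on the acute arrays. On the chronic arrays they were at -0.41, -0.40 and 0.14, so their lower chronic mean rests on acute 3. Cortex markers were at 0.72, 0.94 and -0.49 on the acute and at -0.35, -0.43 and -0.75 on the chronic arrays, with overlap. The part of the tissue markers in the members' differences was not tested. The 4 members higher without overlap hold the 3 lower in the acute group and the 2 higher in the chronic group. The third comparison shares its arrays with both others.

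The difference for Fosb was 1.20 ± 0.24 (SE; 2.30-fold higher, 95% interval 0.66 to 1.75), with unadjusted p = 0.00075 and rank 12 of 16335. For Fosb alone among the members the 3 groups were in a fixed order without overlap: acute (7.46 to 7.87), control (8.02 to 8.07) and chronic (8.35 to 9.49). Junb differed by 0.59 ± 0.13 (SE; 1.50-fold higher, unadjusted p = 0.00145, rank 19). Its order was acute, then control and chronic, which overlapped. Fosl2 differed by 0.95 ± 0.26 (SE; 1.93-fold higher, unadjusted p = 0.00525), with acute and control overlapping below chronic. Fos differed by 0.80 ± 0.23 (SE; 1.75-fold higher, unadjusted p = 0.00667), with control and chronic overlapping above acute. The adjusted p of these 4 was 0.877. Jun differed by 0.10 ± 0.16 (SE), Jund by 0.07 ± 0.14 (SE) and Fosl1 by 0.01 ± 0.09 (SE), and none of the 3 had groups in an order beyond their spread. Without chronic 2 the Fosl2 difference was 0.61, and with the tissue covariates the Jun difference was 0.49 ± 0.14 (SE).

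**Figure D3:**
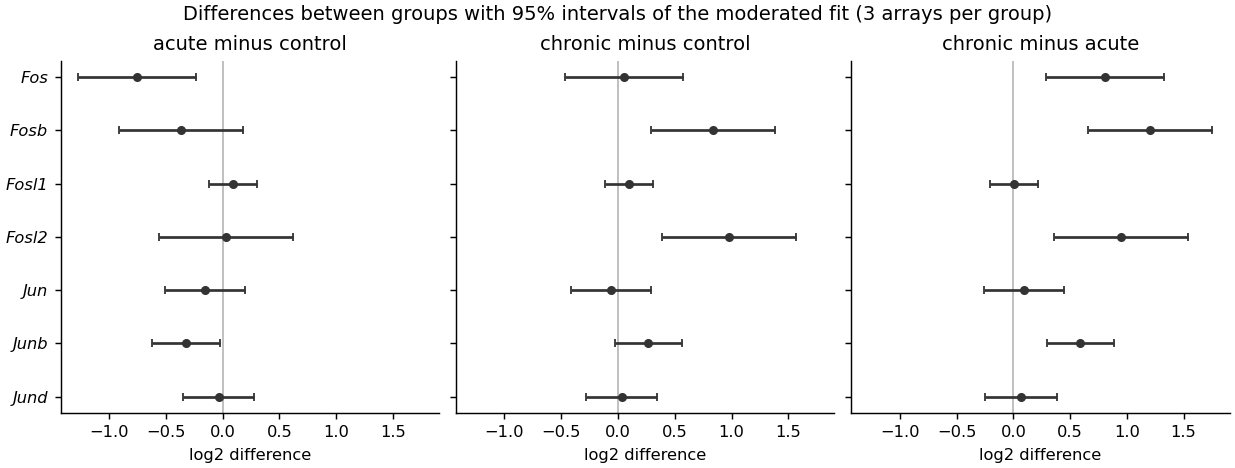
Log2 differences between groups for the 7 members, with 95% intervals of the moderated fit (limma; 3 arrays per group, spread shared over all 9). The intervals for Fos and Junb lie below 0 in acute minus control, those for Fosb and Fosl2 lie above 0 in chronic minus control, and those for Fos, Fosb, Fosl2 and Junb lie above 0 in chronic minus acute; none passed after adjustment over all probe sets.

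Nr4a1 was between 10.6 and 11.3 on the chronic arrays and differed from the acute group by 2.38 ± 0.16 (SE; 5.22-fold higher, adjusted p = 0.00131). Arc differed by 1.18 ± 0.12 (SE; 2.27-fold higher, adjusted p = 0.0288). Nr4a1 stayed past the threshold without any 1 of the 9 arrays (adjusted p up to 0.0247). Arc lost its call without 7 of the 9, all but control 1 and chronic 1 (adjusted p up to 0.264). With the number in the title as a block, Arc also lost it (adjusted p = 0.0619) and Nr4a1 kept it. With the tissue covariates neither passed (adjusted p = 0.192 for Nr4a1). Of 15 immediate early transcription factors 13 were higher in the chronic group (median 0.33), with Egr2 at 1.70 ± 0.24 (SE), and of 18 effectors 14 were higher (median 0.25), with Rgs2 at 0.59 ± 0.10 (SE). Of 14 regulators 11 were higher (median 0.20), with Atf1 at 0.43 ± 0.12 (SE) and the Srf partner Elk4 at 0.28 ± 0.13 (SE). Without chronic 2 the regulators' median was 0.09. The 11 kinases had a median of -0.03, and those with the smallest p were the MAP kinase kinases Map2k1 at -0.21 ± 0.11 (SE) and Map2k2 at -0.18 ± 0.13 (SE), both with overlap.

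The block added further probe sets at an unadjusted p under 0.05: 687 in place of 139 for acute against control, 2128 in place of 900 for chronic against control and 2278 in place of 837 for chronic against acute. Members' differences are the same in that fit, and none of their adjusted p-values fell under 0.05. Junb had an unadjusted p of 0.00380 for acute against control and 0.0104 for chronic against control with the block.

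Other dimer partners and downstream genes had medians near 0. Of 11 further bZIP partners (proteins with the same dimerising domain, such as ATF and MAF factors), none passed the threshold in any comparison, and their medians were 0.03 for acute against control, -0.01 for chronic against control and -0.0002 for chronic against acute. In the acute group Batf2 differed from controls by -0.14 ± 0.09 (SE) and Batf by 0.08 ± 0.08 (SE). Atf3, a stress-induced partner of Jun, differed by 0.32 ± 0.17 (SE) between chronic and control and by 0.39 ± 0.17 (SE) between chronic and acute, and Maf by 0.31 ± 0.14 (SE) and 0.25 ± 0.14 (SE). Of 18 tested genes described as AP-1 or FosB targets, 8, 7 and 8 were higher in the 3 comparisons in the same order, with medians of -0.02, -0.05 and -0.05. Ccnd1 (cyclin D1) was lower by 0.33 ± 0.12 (SE) in the chronic than in the control group, without overlap. Penk, the enkephalin precursor of indirect pathway neurons, differed by 0.23 ± 0.10 (SE) with overlap. Npy, a peptide of interneurons, differed by 0.30 ± 0.15 (SE) and Plat, a plasminogen activator, by 0.21 ± 0.11 (SE) between acute and control. Between chronic and acute, Ccnd1 differed by -0.29 ± 0.12 (SE) with overlap and Plat by -0.27 ± 0.11 (SE) without overlap. None of the targets passed the adjusted threshold.

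Across the 9 arrays the members did not vary as a single unit. Of 21 pairs 18 had a Pearson r above 0, with a median of 0.34. Fosb and Fosl2 were most alike, with r = 0.93 (exact permutation p = 0.00199, 0.0418 after Benjamini-Hochberg adjustment over the 21 pairs) and Spearman rho = 0.65 (exact p = 0.0631, adjusted 0.304). Without chronic 2 and chronic 3, the arrays farthest from the median of Fosb, r was 0.46, so the relation rests on those arrays. Fosb and Junb had r = 0.82 (exact p = 0.00633, adjusted 0.0664) and rho = 0.87 (exact p = 0.00451, adjusted 0.0947), and r was 0.89 without the same 2 arrays. Within groups, as deviations from the group means, Fosb and Fosl2 had r = 0.89 and Fosb and Junb r = 0.37. These permutations exchange all 9 arrays freely and take no account of the 3 groups or of the shared numbers, so the p-values cover differences between groups as well. Chronic 2 was the highest of the 9 arrays for 4 members: Fos, Fosb, Fosl2 and Junb.

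**Figure D4:**
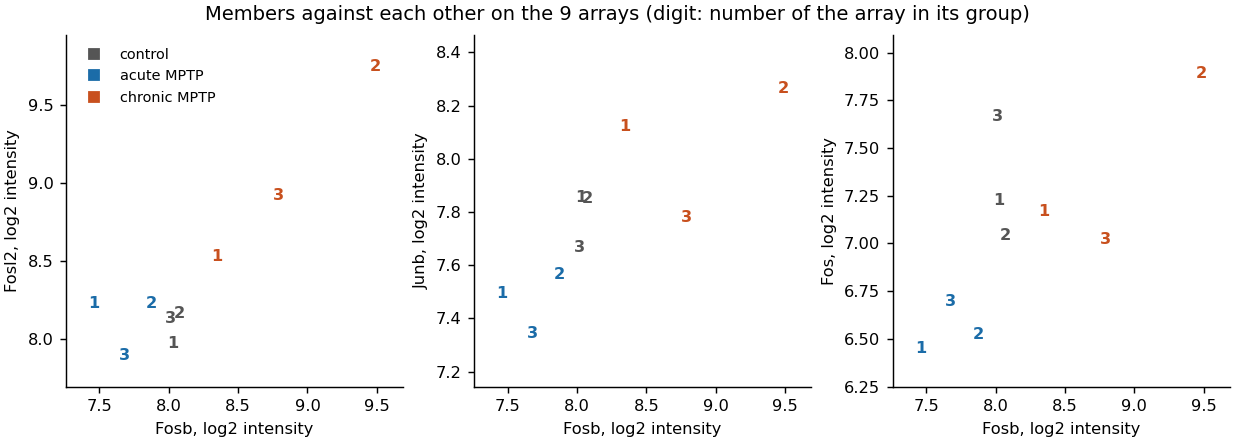
Fosl2, Junb and Fos against Fosb in log2 intensity on the 9 arrays; digits are array numbers and colours are groups. The 3 chronic arrays extend the relation of Fosl2 with Fosb, whose r falls from 0.93 to 0.46 without chronic 2 and 3, whereas acute arrays lie lowest on both axes for Junb and for Fos.

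The probe sets with the highest Pearson r to each member over the 9 arrays, among all tested, are given next. For Fos these were Cnot9, a subunit of the CCR4-NOT deadenylase (r = 0.95), Mcmbp (0.94) and Apold1 (0.92). For Fosb they were Herpud2 (0.98), Zbtb11os1 (0.97) and Zbtb20 (0.97), and for Fosl2 Nfic (0.97), Wipf3 (0.97) and Cacng2 (0.97). For Junb they were Egr4, an immediate early zinc finger factor (0.91), Rcbtb2 (0.91) and Myo9a (0.90). Jun was most like Spef2 (0.94), Ccdc180 (0.93) and Cers6 (0.92), and Jund most like Ppil2 (0.97), Zfp64 (0.97) and Ube2l3 (0.96). Fosl1 was most like Macrod2 (0.98), Jcad (0.98) and Ccrl2 (0.95). Each is the top of all tested probe sets over only 9 arrays and is a description.

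Fosl1 carried the least information of the members. Its values ran from 6.15 on control 3 to 6.49 on acute 1, a range of 0.34, and 4 arrays from all 3 groups (control 1, control 2, acute 2 and chronic 2) had the same value of 6.33. By contrast Fosb spanned 2.03 and Fosl2 1.85 log2 units over the same arrays.

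**Figure D5:**
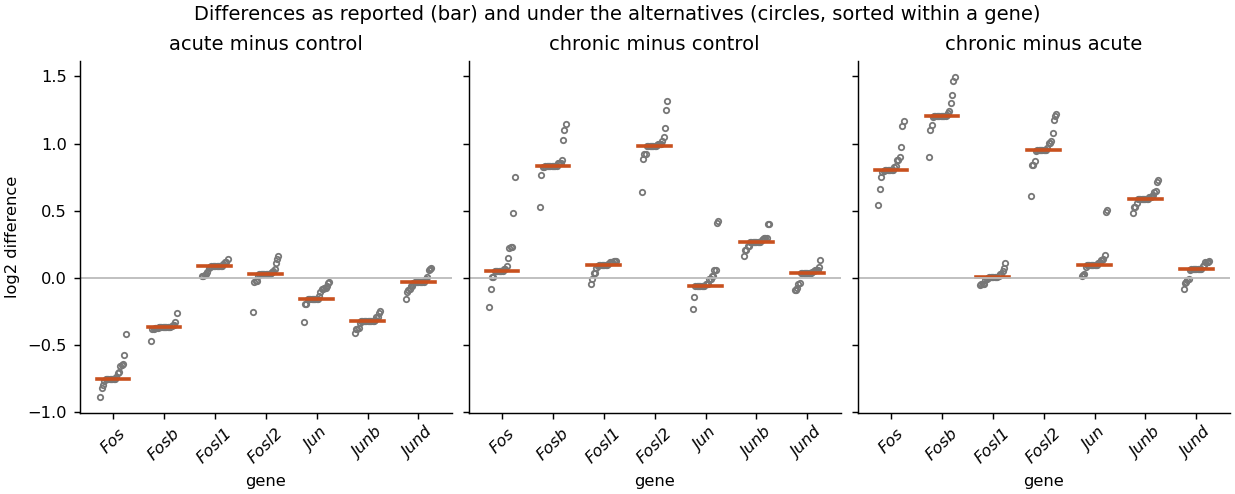
Log2 difference of each member in the 3 comparisons as reported (bar) and under the other ways of processing (circles, sorted from low to high within a gene). Fos, Fosb and Junb stay below 0 in acute minus control, Fosb, Fosl2 and Junb stay above 0 in chronic minus control, and Fos, Fosl1, Jun and Jund cross 0 in chronic minus control. Several alternatives leave a difference unchanged by construction.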

How the data were processed

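Log2 intensities, 1 per probe set on each of 9 Affymetrix arrays, were used as the authors deposited them; the scale was read from the values (4.27 to 14.43, array medians 6.85 to 6.90). Background correction, normalization and summary are not given in the sources used here. Per the labels' protocols, cDNA was made from 200 ng of total RNA. Groups came from the sample titles. The members, gene lists and tests were chosen with earlier results of these data known.

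After dropping the lowest 25 percent by mean signal among the probe sets with a single symbol, 16335 were tested. Group means were fitted with limma 3.58.1 in R 4.3.3 on all 9 arrays (6 residual degrees of freedom). P-values were adjusted by Benjamini-Hochberg, with 0.05 as threshold. The fit was run on simulated data with independent noise on each array. That simulation does not copy the shared deviations of the real arrays, so it cannot show how the fit behaves under them. Named genes are the members, the 2 genes of each pathway list with the smallest p in each comparison, genes past the threshold, the 3 most correlated with each member, and defining tissue markers. Of the 6 pathway lists, Ier2, Mmp3 and Timp1 were below the filter, and genes without a probe set of their own were not analysed here. Arrays with the same number in the title deviated together (r from 0.16 to 0.67 over 9 pairs, from -0.61 to 0.18 over the 18 others). The number was therefore used as a block among the alternatives only, and the main fit has no pairing. This pairing comes from the values, since the labels name no shared batch. Deviations cancel out within a group, so a higher r for the same numbers goes with a lower r for the others. Alternatives were 2 other filters, the block, tissue covariates, both, only the compared groups, 2 scalings, another moderation, array weights, and leaving arrays out.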

Additional observations from a re-analysis of the deposited data

How the results depend on the processing

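Over 21 alternatives the members gave 435 differences, of which 401 kept their direction, 34 turned and 0 had an adjusted p under 0.05. Those kept by each alternative were Fos (-0.89 to -0.42), Fosb (-0.47 to -0.26), Jun, Junb (-0.41 to -0.24) and Fosl1 for acute against control, Fosb (0.53 to 1.15), Fosl2 (0.64 to 1.32) and Junb (0.16 to 0.40) for chronic against control, and Fos (0.54 to 1.17), Fosb (0.90 to 1.50), Fosl2 (0.61 to 1.22), Junb (0.49 to 0.73) and Jun for chronic against acute. Many of the 435 could not turn. The other filters, the block, fits of only the compared groups and the other moderation leave each difference unchanged. So does leaving out an array of the group that is not compared. The count of 401 therefore overstates how far the directions were tested. A filter at the median left out Fos and Fosl1, and 1 member was then higher in acute against control.

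With the tissue covariates (4 residual degrees of freedom), Jund turned to 0.0078 for acute against control, -0.073 for chronic against control and -0.081 for chronic against acute, Fosl1 to -0.0085 and -0.050 for the last 2 comparisons, and Jun to 0.41 for chronic against control. The members' median there was 0.41, 2 members were lower in each of the last 2 comparisons, and 0 probe sets were called for chronic against acute. With the covariates and the replicate block together (2 residual degrees of freedom), Jund turned to 0.056 and -0.019 (acute against control, chronic against acute), Fosl1 to -0.045 and -0.058 and Jun to 0.42, the median was 0.42, 2 members were lower for chronic against acute and 0 probe sets were called. The block alone cannot change a member's difference in this layout, and no member was called with it. For chronic against acute 2 probe sets were called with the block, as without it, but Arc was no longer among them. With array weights Jun turned to 0.015 and Jund to -0.047 for chronic against control. Leaving out the 3 arrays high in cortex genes (control 1, acute 1 and acute 2) left acute 3 as the only acute array. Fosl2 then turned to -0.25 for acute against control, with 1 member higher. Jund turned to -0.091 for chronic against control and -0.029 for chronic against acute. In that setting 2 members were lower for chronic against control and 1 for chronic against acute. Without the 2 arrays high in choroid plexus genes, Jun turned to 0.056 for chronic against control and Fosl1 to -0.045 for chronic against acute, with 0 and 1 members lower and 0 probe sets called. With no filter 1 probe set was called for chronic against acute; in fits of only the 2 groups compared 1 was called there and 1 (Nr4a1) for acute against control. The cause of these shifts was not tested.

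Leaving out 1 array at a time, chronic against control ran from -0.21 to 0.23 for Fos, -0.23 to 0.056 for Jun and -0.091 to 0.13 for Jund; acute against control from -0.031 to 0.14 for Fosl2 and -0.16 to 0.069 for Jund; chronic against acute from -0.045 to 0.074 for Fosl1 and -0.037 to 0.12 for Jund. Members higher in acute against control ran from 1 to 3, members lower in chronic against control from 0 to 3 and in chronic against acute from 0 to 1, and probe sets called from 0 to 1, 0 to 2 and 1 to 5 in the 3 comparisons. Over the 3 comparisons the medians of the bZIP partners ran from -0.035 to 0.10, of the kinases from -0.10 to 0.056 and of the AP-1 or FosB targets from -0.11 to 0.029. With 3 arrays in a group, precision is limited throughout.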

Other observations

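Ratios between members on the same array, chosen after the values were seen, do not change with a constant log2 shift of a whole array. A scaling that depends on intensity can change them. The log2 ratio of Fosl2 to Fos ran from 0.47 to 1.12 on the control arrays, from 1.20 to 1.78 on the acute arrays and from 1.36 to 1.90 on the chronic arrays. It was higher than in controls by 0.78 in the acute and by 0.93 in the chronic group, without overlap (exact two-sided permutation p = 0.1 for each, the smallest that 3 arrays against 3 allow). The ratio of Fosb to Fos was higher by 0.79 in the chronic group than in controls, also without overlap (exact p = 0.1), and by 0.39 in the acute group, with overlap (exact p = 0.3). The ratio of Fos to Jun, its main partner, was lower by 0.60 in the acute group than in controls without overlap (exact p = 0.1). The ratio of Junb to Jund was higher by 0.52 in the chronic than in the acute group (exact p = 0.1). The ratio of Fosl2 to Fosb was higher than in controls by 0.40 in the acute and by 0.14 in the chronic group, without overlap (exact permutation p = 0.1 for each). In all 6 ratios were compared, each in the 3 comparisons, and not all are given here. Since the ratios were chosen from these values, their p-values add no support to the differences of the single members.

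Of the genes that mark dopamine axons, whose messages are made mostly in cell bodies outside the striatum, 4 of 4 were lower in the acute group (median -0.27) and 3 of 4 in the chronic group (median -0.10), none past the adjusted threshold. The dopamine transporter gene Slc6a3 ran from 6.58 to 6.74 on the control arrays, from 6.29 to 6.53 on the acute arrays and from 6.45 to 6.68 on the chronic arrays. Th, another of the 4, overlapped between all groups. It ran from 7.14 to 8.51 on the control arrays, from 7.34 to 8.02 on the acute arrays and from 7.48 to 8.61 on the chronic arrays.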
